A study of Mus musculus with 4 samples.

Results

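The comparison described here is between the main ventricular cardiomyocyte population, called CM1, of uninjured hearts with and without a cardiomyocyte deletion of Nrf1. Its members are the nuclei that the deposited annotation labels CM1 in both libraries from sham-operated mice, 2619 from the knockout library (KO-Sham) and 1098 from the control library (WT-Sham). These 3717 nuclei are part of 6440 CM1 nuclei and of 8585 cardiomyocyte nuclei in 4 libraries. KO-Sham hearts came from Nrf1fl/fl:aMHC-Cre mice, in which the alpha myosin heavy chain promoter drives Cre in cardiomyocytes, and WT-Sham hearts from Nrf1fl/fl mice that carry the same floxed alleles and no Cre. Both strains were on a C57BL/6 background, sham surgery was done on postnatal day 3 and hearts were taken 1 day later. Each library is 1 pool of ventricular tissue from 4 to 6 hearts, the matching pair KO-MI and WT-MI had the same genotypes with myocardial infarction in place of sham surgery, and no library has a replicate. No difference below therefore carries a p-value, the deletion and the presence of Cre cannot be told apart, and every interval covers counting error only.

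Nrf1, encoded by Nfe2l1, is a cap'n'collar transcription factor that sits in the membrane of the endoplasmic reticulum. It is retrotranslocated, deglycosylated by Ngly1 and cleaved by Ddi2 before it enters the nucleus, where it pairs with small Maf proteins at antioxidant response elements. It is best known for raising proteasome subunit genes when proteasome activity drops, and it shares target genes for glutathione, thioredoxin and heme metabolism with its relative Nrf2. It is a different protein from nuclear respiratory factor 1, whose gene has the symbol Nrf1 and which acts on genes of the respiratory chain. The heart of a newborn mouse is switching from glycolysis to fatty acid oxidation at this age, so both protein turnover and mitochondrial genes are of interest in these nuclei.

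The 2 pools differed in measures that touch every gene. A CM1 nucleus held a median of 2632 UMIs (unique molecular identifiers, 1 per captured RNA molecule) in KO-Sham and 3749 in WT-Sham, against 4044 in KO-MI and 4042 in WT-MI. The 13 protein genes of the mitochondrial genome made up a median of 8.78% of a nucleus's UMIs in KO-Sham and 6.13% in WT-Sham, against 5.05% and 5.15% after infarction. KO-Sham thus stood apart from the other 3 libraries on both measures, and the part these play in the ratios below was not tested beyond the bands of nuclei described further on. After each nucleus was thinned to 1000 UMIs, the median number of genes seen was 637 in KO-Sham and 650 in WT-Sham. All 12 cardiomyocyte markers were measured in both sums. Myh6 was at 5582 CPM (UMIs of a gene per 1000000 UMIs summed) in KO-Sham and 5093 in WT-Sham, and Ttn at 9203 and 10977. These markers were not set beside other cardiomyocyte populations, so they do not check the CM1 label itself. Of the deposited CM1 nuclei, 2122 in KO-Sham and 934 in WT-Sham also had CM1 as the label transferred from the reference. The transferred label was CM3 in 411 and 142 nuclei and CM4 in 79 and 15. No CM1 nucleus of either library shared its barcode with the other.

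**Figure D1:**
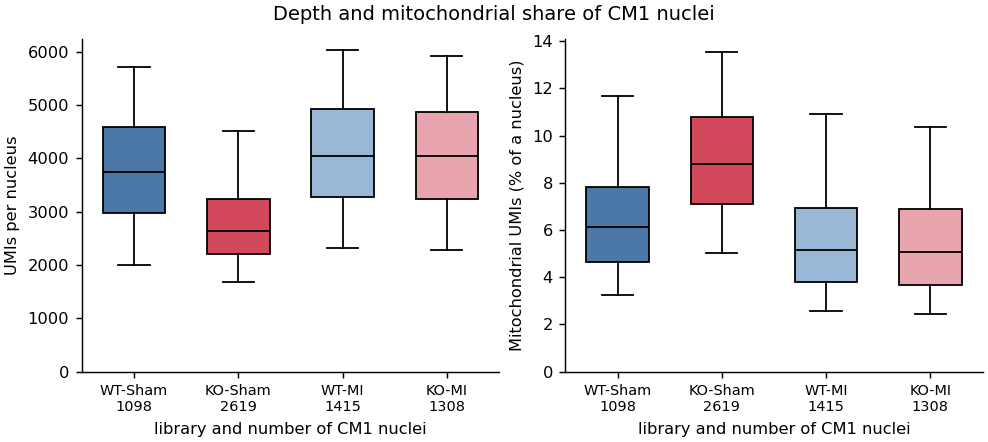
Boxes show UMIs per CM1 nucleus (left) and the mitochondrial percent of a nucleus's UMIs (right) in each library, with the median, quartiles and whiskers at the percentiles 5 and 95. The KO-Sham box sits lowest for UMIs, with a median of 2632, and highest for mitochondrial percent, with a median of 8.78%.

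The sexes of the pooled animals also differed. Xist, the RNA that silences 1 X chromosome in female cells, was seen in 1332 of 2619 CM1 nuclei of KO-Sham (50.9%, exact binomial interval 48.9 to 52.8%) and in 109 of 1098 of WT-Sham (9.93%, 8.22 to 11.9%). At least 1 UMI of the Y-linked genes Kdm5d, Uty, Ddx3y or Eif2s3y was seen in 33.1% (31.3 to 35.0%) and 63.8% (60.9 to 66.7%). Nuclei with both, which no single normal nucleus should show, were 5.99% of KO-Sham and 1.46% of WT-Sham. These were 157 of the 1332 nuclei with Xist in KO-Sham and 16 of the 109 in WT-Sham. Within nuclei that held it, Xist was at 1506 CPM in KO-Sham and 1558 CPM in WT-Sham.

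For each gene the UMIs of all CM1 nuclei of a library were summed, 7335268 in KO-Sham and 4151418 in WT-Sham, and the log2 ratio of the CPM was taken as KO-Sham over WT-Sham. Of 9143 genes with at least 100 UMIs over both sums, the median gene had a log2 ratio of -0.12, and all ratios below are set relative to that gene unless stated otherwise. On that scale 825 genes, 9.02% of those tested, were more than 1.5-fold higher in KO-Sham, and 101 genes, 1.10%, were more than 1.5-fold lower. Counts of list members past the fold in CM1 of this pair stand beside these shares. Among genes with at least 400 UMIs 488 were past the fold higher and 6 lower, so nearly all lower genes had few UMIs. Relative to the unscaled CPM the counts were 504 higher and 250 lower. The percentiles 5 and 95 of the ratio were -0.39 and 0.74.

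**Figure D2:**
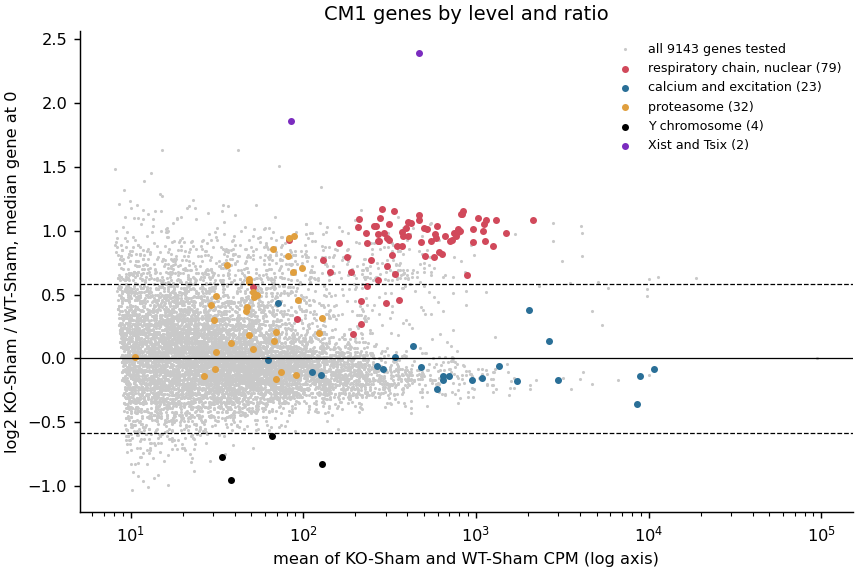
Each point is 1 of 9143 genes in CM1, with the mean CPM of both libraries on a log axis and the log2 ratio of KO-Sham over WT-Sham with the median gene at 0; dashed lines mark 1.5-fold. Nuclear genes of the respiratory chain form a band around their median ratio of 0.96, proteasome genes spread from -0.16 to 0.96, and Xist (2.39) and the Y-linked genes lie at the extremes.

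The deleted gene itself did not stand apart. Nfe2l1 (chr11:96817414-96829968 in GRCm38) had 391 UMIs in KO-Sham and 255 in WT-Sham, or 53.3 and 61.4 CPM, a log2 ratio of -0.08 (-0.31 to 0.15). The floxed exons are not given in the sources used here, and the 3′ tags counted may lie outside them, so this value does not check the deletion. In the infarcted pair Nfe2l1 stood at 57.7 CPM with the deletion and 44.1 without, a ratio of 0.37. Its relative Nfe2l2 (Nrf2) was at 57.4 and 71.1 CPM, -0.18 (-0.40 to 0.04). The gene with the symbol Nrf1, nuclear respiratory factor 1, which was looked up after its values were seen, was at 83.7 and 83.6 CPM, 0.13 (-0.07 to 0.32).

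Genes that process or degrade Nrf1 lay close to the median gene, and its tested partners and competitors below it. Of 20 listed genes 15 were tested, 0 were past 1.5-fold higher and 1 was lower, with a median of -0.11 against 0 over all genes. Ddi2, the protease that activates Nrf1, was at -0.08 (-0.27 to 0.10), Ngly1 at -0.01 (-0.30 to 0.29), and Vcp, the extraction ATPase, at -0.06 (-0.22 to 0.10). Ogt, the sugar transferase that modifies Nrf1 and the most counted member, was at -0.11 (-0.23 to 0.00). The 10 genes of processing and turnover had a median of -0.07 and 3 partners and competitors -0.41. The gene past the fold was Mafg, a small Maf partner, with 105 UMIs in each library, 14.3 CPM in KO-Sham and 25.3 CPM in WT-Sham, a ratio of -0.70 (-1.10 to -0.29). Mafg was also low in KO-MI, at -0.71 (-1.02 to -0.41) relative to WT-MI. Bach1, the repressor that competes for small Maf proteins, was at -0.41 (-0.77 to -0.04).

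Proteasome subunit genes lay above the median gene in KO-Sham, the 20S core more so than the 19S cap. All 32 subunits in the matrix were tested, 9 were past 1.5-fold higher and 0 lower, with a median of 0.38. Together they took 2110 CPM (2076 to 2143) in KO-Sham and 1752 CPM (1712 to 1793) in WT-Sham. The 7 beta subunits of the 20S core, which hold the protein-cutting sites, had a median of 0.68 with 4 past the fold, and the 7 alpha subunits, which form the gate, 0.40 with 3 past it. The 6 ATPases of the 19S cap had a median of 0.18 and the 12 other 19S subunits 0.13, with 0 and 2 past the fold.

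Psmb5, the chymotrypsin-like subunit, had the highest ratio, with 113 CPM in KO-Sham, 63.6 CPM in WT-Sham and 0.96 (0.76 to 1.16). Psmb6, the caspase-like subunit, followed at 0.94 (0.73 to 1.15). Psmd11, a lid subunit, had the lowest at -0.16 (-0.37 to 0.05). Psmd1, the large scaffold of the 19S base, was at 68.7 and 80.7 CPM, -0.11 (-0.31 to 0.10). Psma1 was at 71.6 and 67.2 CPM, 0.21 (0.00 to 0.43), Psma5 at 50.2 and 42.4 CPM, 0.37 (0.10 to 0.63), and Psmb3 at 103 and 70.3 CPM, 0.68 (0.48 to 0.88). These values place the core subunits above most cap subunits, a difference between roles that was not tested.

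Assembly factors, activators and immunoproteasome subunits had a median of 0.55 over 10 tested genes, with 5 past the fold higher and 0 lower. The 6 tested assembly factors had a median of 0.42 with 2 past the fold, and the 3 tested activators 0.63 with 2. Psmb10, the only immunoproteasome subunit tested, was at 0.94. By summed UMIs the activators stood at 0.04 (-0.06 to 0.14). Psme1 and Psme2, the 11S activator subunits, were at 0.99 (0.76 to 1.23) and 0.63 (0.29 to 0.98). Pomp, the core assembly factor, was at 0.61 (0.39 to 0.84). Psme4, the nuclear activator PA200 and the most counted of them, went the other way with 177 and 246 CPM, -0.35 (-0.47 to -0.23).

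Antioxidant response elements are the sites through which Nrf1 and Nrf2 act, so promoters of both lists were searched for the core TGACNNNGC on both strands, from 250 bases before to 50 bases after the first listed start of each gene in RefSeq (GRCm38.p6). It was found in 5 of 26 proteasome promoters with a window (19.2%) and in 8 of 32 antioxidant promoters (25%). Over all 27025 promoters the share was 12.5%. Those were not limited to genes tested in CM1, as the lists were. The core was also found in 9 of 65 respiratory chain promoters (13.8%) and 11 of 56 cytosolic ribosome promoters (19.6%). The 6 matches shown, chosen after the values were seen, are from genes on either side of the median gene. Capitals mark the match, on the strand of the gene, as the core or as its reverse complement GCNNNGTCA.
Psmb5, chr14:54618024-54618052, core: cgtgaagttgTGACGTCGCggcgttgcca
Adrm1, chr2:180171416-180171444, core: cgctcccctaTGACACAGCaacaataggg
Psmc6, chr14:45329587-45329615, reverse complement: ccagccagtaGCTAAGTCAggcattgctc
Sod1, chr16:90220696-90220724, reverse complement: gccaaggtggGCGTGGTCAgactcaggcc
Prdx1, chr4:116685456-116685484, reverse complement: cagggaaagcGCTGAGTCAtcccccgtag
Mt2, chr8:94172529-94172557, core: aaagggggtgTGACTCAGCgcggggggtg
Their ratios ranged from -0.13 (-0.31 to 0.06) for Psmc6, an ATPase of the cap, to 0.96 for Psmb5, with Adrm1, the ubiquitin receptor of the cap, at 0.01 (-0.54 to 0.57), Sod1 at 0.51, Prdx1 at 0.42 and Mt2 at 0.70. A match is a description of these letters and not a bound site.

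Of 45 antioxidant genes 37 were tested, 13 were past 1.5-fold higher and 1 lower, with a median of 0.37. Sod2, the mitochondrial superoxide dismutase, had 2565 UMIs in KO-Sham and 869 in WT-Sham, 350 and 209 CPM, and 0.86 (0.75 to 0.98). The highest was Mgst3, a microsomal glutathione transferase, with 141 and 77.8 CPM and 0.98 (0.80 to 1.16). Peroxiredoxins were among the higher genes, with Prdx5 at 0.79 (0.64 to 0.95) and Prdx2 at 0.71 (0.59 to 0.84), as were the metal-binding metallothioneins Mt1 at 0.74 (0.58 to 0.90) and Mt2 at 0.70 (0.08 to 1.36). Fth1, the ferritin heavy chain and the most counted member, was at 702 and 591 CPM, 0.37 (0.30 to 0.44).

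Other members of the list had ratios below or near 0. Hmox1, heme oxygenase 1, had 28 UMIs in KO-Sham and 35 in WT-Sham, too few for the minimum, at 3.82 and 8.43 CPM and -1.02 (-1.79 to -0.26). The 10 nuclei with the most Hmox1 UMIs held 39.3% of them in KO-Sham and 65.7% in WT-Sham. The Hmox1 ratio thus rests on few nuclei. Me1, the cytosolic malic enzyme that makes NADPH, was the only tested gene of the list past the fold on the low side. It was at 17.3 and 28.9 CPM and -0.62 (-0.99 to -0.24). Nqo1, the quinone reductase, was at -0.50 (-1.14 to 0.15) on 46 and 40 UMIs. Cat, catalase, was at 51.5 and 52.0 CPM, 0.11 (-0.13 to 0.36), and Gclc, the rate-limiting glutathione synthesis enzyme, at -0.17 (-0.69 to 0.35). Me1 and Hmox1 were low in the infarcted pair as well, at -0.98 (-1.35 to -0.63) and -0.72 (-1.24 to -0.22).

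Chaperone and ubiquitin genes were mostly higher. Of 20 tested, 13 were past the fold higher and 0 lower, with a median of 0.67. Hspb1 and Cryab, the small heat shock proteins of muscle, were at 1.0 (0.85 to 1.15) and 0.95 (0.85 to 1.04), and Hspa8, the constitutive chaperone, at 0.73 (0.63 to 0.83). All 4 ubiquitin genes were past the fold, with a median of 0.76 and Ubb at 0.64. The inducible Hspa1a and Hspa1b were barely seen, with 8 and 3 UMIs in KO-Sham and 5 and 4 in WT-Sham. Sqstm1, the autophagy adaptor p62, was at -0.08 (-0.32 to 0.16). Genes of endoplasmic reticulum stress and degradation had 0 of 21 past the fold in either direction and a median of 0.10 that turned to -0.03 without the scaling, with Hspa5, the reticulum chaperone, at 0.37 and Atf6, the stress sensor, at -0.30.

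Of the pathway lists, nuclear genes of the respiratory chain, which moves electrons to oxygen and makes ATP, had the highest median. All 79 were tested, 71 were past 1.5-fold higher and 0 lower, and the median was 0.96. They took 53042 CPM (52876 to 53209) of the UMIs in KO-Sham and 29959 CPM (29792 to 30126) in WT-Sham. Medians of the complexes were 0.97 for complex I, 0.53 for complex II, 0.96 for complex III, 0.99 for complex IV and 0.92 for complex V. Cox4i1, a subunit of cytochrome oxidase and the most counted, had 20615 UMIs in KO-Sham and 6035 in WT-Sham, 2810 and 1454 CPM, and 1.08 (1.03 to 1.12). Cox8b, the muscle isoform of another subunit, had the highest ratio at 1.17 (1.06 to 1.29) and Sdhc, an anchor of succinate dehydrogenase, the lowest at 0.19 (0.07 to 0.32). Ndufs1 and Ndufs4 of complex I were also inside the fold, at 0.27 and 0.43.

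Other mitochondrial genes were higher by smaller amounts. The 13 mitochondrially encoded genes had a median of 0.59 and 7 were past the fold, from mt-Nd5 at 0.41 to mt-Nd6 at 0.97. Their median was 0.22 in nuclei with at most 5% mitochondrial UMIs and 0.15 in those with 6 to 9%, bands set on these same genes, and 0.06 against genes of like length. Mitochondrial ribosome genes had a median of 0.63 with 29 of 52 past the fold, and citrate cycle and phosphate transfer genes 0.66 with 12 of 23. Slc25a4, the ATP exporter of heart mitochondria, was at 3519 and 2028 CPM, 0.92 (0.88 to 0.95). Fh1, fumarate hydratase, was the highest of that list at 1.06 (0.89 to 1.24), and Dlst of the oxoglutarate dehydrogenase complex the lowest, at -0.00 (-0.14 to 0.14). Genes of the cytosolic ribosome, which lies outside mitochondria, had a median of 0.67 with 65 of 75 past the fold and 0 lower. Of genes that regulate mitochondrial biogenesis, Ppargc1a was at 0.01 (-0.06 to 0.08), Esrra at 0.03 (-0.12 to 0.17) and Ppargc1b at -0.12 (-0.20 to -0.04). Tfam, the mitochondrial transcription factor, looked up after its values were seen, was at 20.6 and 14.0 CPM, 0.68 (0.24 to 1.15).

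**Figure D3:**
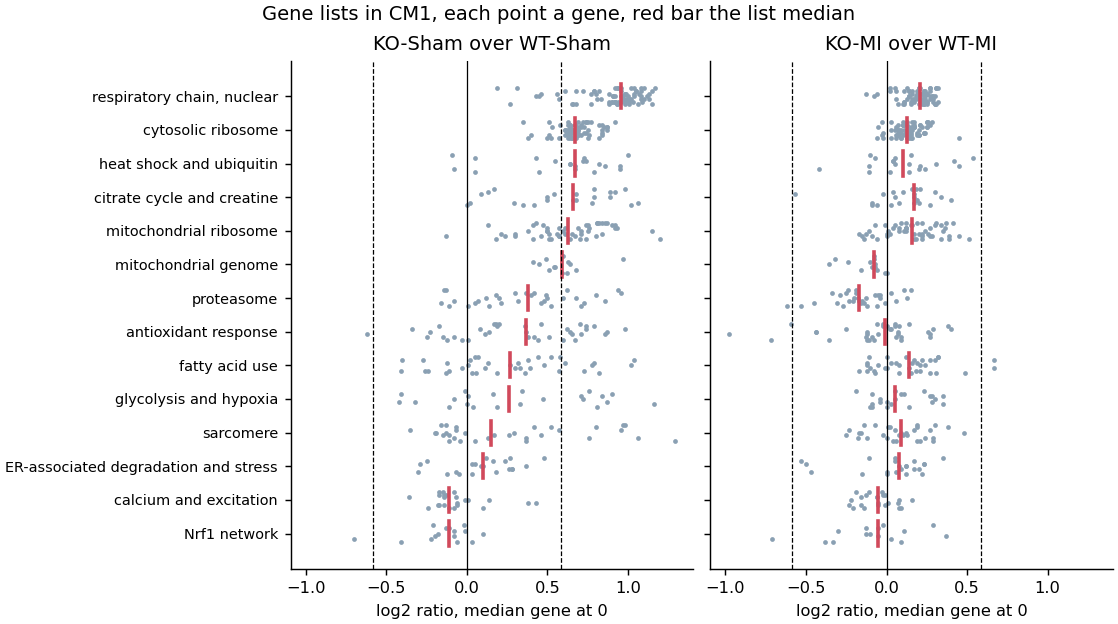
Points are tested genes of 14 lists and red bars the list medians, on the log2 ratio with the median gene at 0, for the sham pair (left) and the infarcted pair (right); dashed lines mark 1.5-fold. Respiratory chain genes center on 0.96 on the left and 0.21 on the right, and proteasome genes on 0.38 and -0.17.

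Genes of fuel use split by step. In fatty acid use 7 of 37 were past the fold higher, against 9.02% of all genes tested, and 0 lower, with a median of 0.27. Fabp3, the fatty acid carrier of the heart and the most counted, was at 5266 and 2791 CPM, 1.04 (1.01 to 1.07). Beta oxidation enzymes had a median of 0.57 with 6 of 14 past the fold, among them Acadvl at 0.79 and Etfb at 1.02. Regulators had a median of 0.01, with Pdk4, the kinase that holds back glucose oxidation, at -0.27 (-0.44 to -0.09), and Ucp3 lowest at -0.41 (-0.62 to -0.20). In glycolysis 8 of 17 enzymes and transporters were past the fold. Pgam2, the muscle phosphoglycerate mutase, was highest at 1.16 (1.03 to 1.29), Gapdh at 0.90 (0.78 to 1.02), and Hk2, which opens the pathway, lowest at -0.42 (-0.67 to -0.18). The 5 tested hypoxia response genes had a median of 0.04 and 0 past the fold.

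Contractile genes split in the same manner. Of 32 tested sarcomere genes 7 were past the fold higher, against 9.02% of all genes tested, and 0 lower, with a median of 0.15. Thin filament genes had a median of 0.54 with 4 of 10 past the fold, led by Actc1, cardiac actin, with 3657 and 1909 CPM and 1.06 (1.03 to 1.10), and Tnni3, adult troponin I, with 0.97 (0.92 to 1.02). Acta1, skeletal actin, had the highest ratio at 1.29 (0.77 to 1.85) on 151 and 38 UMIs. Myl3, a ventricular light chain, was at 0.98 (0.95 to 1.01) and Tnnt2, troponin T, at 5065 and 4284 CPM, 0.37 (0.34 to 0.39). Titin and M-band genes had a median of -0.13, with Ttn, the molecular spring and the most counted sarcomere gene, at -0.13 (-0.15 to -0.11). Myh7b was the lowest at -0.35 (-0.44 to -0.26). Of 23 calcium handling and excitation genes 0 were past the fold and the median was -0.11. Cacna1c, the L-type calcium channel, was the lowest at 7116 and 9979 CPM, -0.36 (-0.38 to -0.35). Slc8a1, the sodium-calcium exchanger and the most counted, was at -0.08 (-0.10 to -0.06). Hrc, a calcium-binding protein of the reticulum, was the highest at 0.43 (0.22 to 0.65).

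Several stress and immature genes were higher in KO-Sham, 2 of 6 tested genes of injury and 4 of 8 of the immature state. Over all genes tested 9.02% were past the fold higher. Nppb, the B-type natriuretic peptide, had 770 UMIs and 105 CPM in KO-Sham and 167 UMIs and 40.2 CPM in WT-Sham, a ratio of 1.51 (1.26 to 1.76). Nppa, the atrial peptide, was at 256 and 148 CPM, 0.91 (0.78 to 1.05). Both levels were below those of the infarcted hearts, where Nppb had 827 CPM with the deletion and 736 without, and Nppa 2374 and 1961. Acta2, smooth muscle actin of the embryonic heart, was at 264 and 136 CPM, 1.08 (0.94 to 1.22), and Myl9 at 1.05 (0.86 to 1.24). The atrial light chains Myl4 and Myl7 were at 0.85 (0.42 to 1.31) and 0.80 (0.16 to 1.48). In all, 6 of 14 tested genes of injury and immature state were past the fold higher and 0 lower, with a median of 0.48 that came to 0.19 in nuclei with at most 5% mitochondrial UMIs and 0.11 in nuclei with an Xist UMI. Tnni1, fetal troponin I and the most counted, was at 1296 and 985 CPM, 0.52 (0.47 to 0.57), and H19, a fetal long RNA, at -0.03 (-0.22 to 0.16). Ankrd1, a stretch-responsive gene, was at 0.45 (0.31 to 0.58), and Xirp2, a gene of intercalated discs, was lowest at -0.20 (-0.59 to 0.20).

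Genes of the cell cycle were scarce. Of 23 tested 10 were past the fold higher and 0 lower, against 9.02% and 1.10% of all genes tested. Their median was 0.34, and -0.02 in nuclei with at most 5% mitochondrial UMIs. Cdk1, the mitotic kinase, was at 21.1 and 11.3 CPM, 1.02 (0.55 to 1.53), Pcna, the replication clamp, at 0.87 (0.53 to 1.23) and Top2a at 0.69 (0.30 to 1.09). Ccnb2, a mitotic cyclin, was at 11.2 and 6.74 CPM, 0.85 (0.22 to 1.53), while Mki67, the proliferation marker, was at 13 and 12 CPM, 0.23 (-0.28 to 0.75). The D cyclins and brakes had a median of 0.08 and 0 of 8 past the fold, with Tbx20, the most counted, at 0.04 and Meis1, a brake on cardiomyocyte division, lowest at -0.20 (-0.30 to -0.11). Among early response factors 1 of 8 tested was past the fold, Klf4, which was lower at -0.82 (-1.38 to -0.27) on 55 and 60 UMIs, and Jun was at 0.25 (-0.05 to 0.55). Malat1, the most abundant nuclear RNA, was at 90874 and 98908 CPM, 0.00 on the scaled ratio, and Neat1 at -0.25 (-0.40 to -0.10).

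The ratio ran with the length of the gene, as a description across 9060 genes with an annotated length. Genes were split by length into 10 equal groups. In the shortest group, up to 5799 bases, the median was 0.52 (quartiles 0.19 and 0.74) and 43.3% of genes were past the fold higher. The medians came down with each group, to 0.03 in the fifth and -0.12 (-0.22 and -0.02) in the longest, from 147905 bases, where 0.993% were past the fold higher and the same share lower. The shortest group took 19.1% of UMIs in KO-Sham and 13.6% in WT-Sham, and the longest 21.9% and 26.5%. Pearson's r between the ratio and log10 length was -0.47 over these genes, which share 2 libraries and are not independent. The lists differ in length in the same order as in ratio, with a median of 7245 bases for respiratory chain genes, 12806 for proteasome genes, 27377 for sarcomere genes and 238166 for calcium and excitation genes. Ribosomal protein genes, at 3368 bases, had a lower median ratio than the longer respiratory chain genes. Set against the median of genes of like length, the respiratory chain median was 0.56, the proteasome 0.28, the antioxidant list 0.14, the cytosolic ribosome 0.16, heat shock and ubiquitin genes 0.28, the mitochondrial ribosome 0.33, the sarcomere 0.06 and the calcium list -0.01, and 303 genes were past the fold higher and 222 lower. How much of each list's difference length accounts for was not tested.

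**Figure D4:**
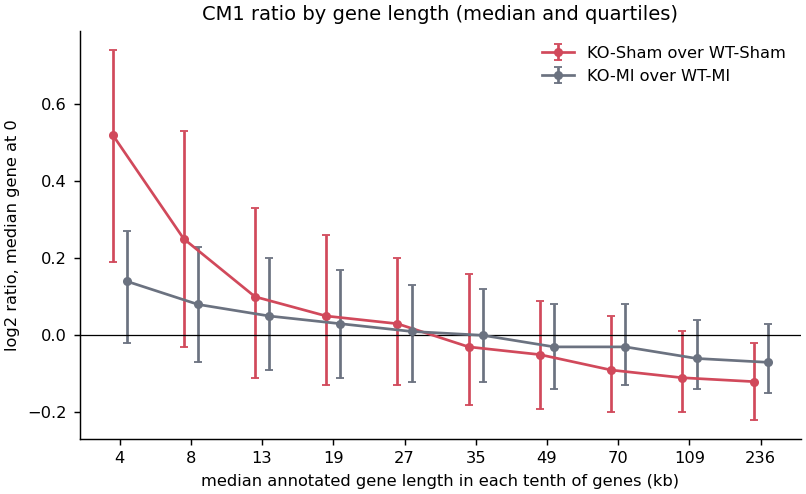
Points are the median log2 ratio, with the median gene at 0, in 10 equal groups of genes ordered by annotated length in kb, and bars run from the lower to the upper quartile, for the sham pair (red) and the infarcted pair (grey). The sham pair runs from 0.52 in the shortest genes to -0.12 in the longest, the infarcted pair from 0.14 to -0.07.

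The mitochondrial share and depth of a nucleus moved with several of these groups, so the pair was compared within bands of each. Ratios in this paragraph are of CPM without the scaling to the median gene, on which the respiratory chain median over all nuclei was 0.83. In WT-Sham the respiratory chain ran from 23860 CPM in nuclei under 4% mitochondrial UMIs to 41007 CPM in nuclei at 12 to 20%, and in KO-Sham from 35539 to 58979 CPM. Within the 6 bands the log2 ratio lay between 0.52 (0.49 to 0.56) and 0.70 (0.68 to 0.72). Within the 5 bands of UMIs per nucleus it lay between 0.54 (0.52 to 0.56) and 0.67 (0.65 to 0.69). Proteasome ratios in the mitochondrial bands lay between 0.13 (-0.10 to 0.35) and 0.23 (0.12 to 0.33), those of the antioxidant list between 0.00 (-0.11 to 0.12) at 10 to 12% and 0.23 (0.17 to 0.29) at 6 to 8%, and those of calcium and excitation genes between -0.18 (-0.21 to -0.16) and -0.04 (-0.08 to -0.00). The respiratory chain was thus higher in each band. The interval of the antioxidant list held 0 under 4% and at 10 to 12%, while the counting interval of the proteasome held 0 in the lowest mitochondrial band, with 27 KO-Sham nuclei, started at 0.00 in the highest, and held 0 under 2000 UMIs (-0.01 to 0.43) and at 4000 to 5000 UMIs (-0.08 to 0.11).

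**Figure D5:**
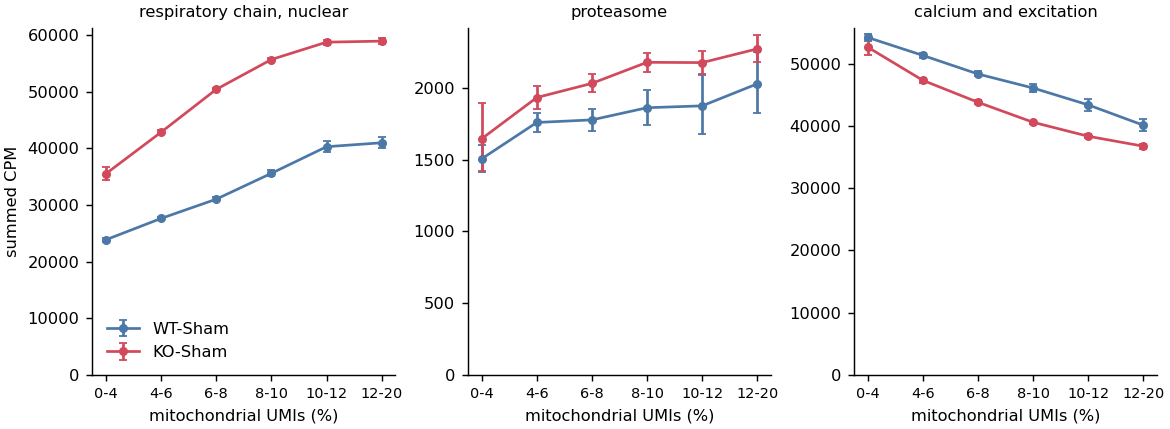
Summed CPM of 3 gene lists in CM1 nuclei grouped by mitochondrial percent, for WT-Sham (blue) and KO-Sham (red), with exact 95% Poisson intervals. KO-Sham is above WT-Sham for the respiratory chain in all 6 bands (35539 and 23860 CPM in the lowest) and below it for calcium and excitation genes.

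RNA of other cell types was present in CM1 nuclei of both libraries and did not move as 1 group. Red blood cell markers were seen in 2511 of 2619 KO-Sham and 1096 of 1098 WT-Sham nuclei and summed to 1892 and 2546 CPM, with hemoglobin genes from -0.40 for Hbb-bt to -0.26 for Hbb-bs. Their median of -0.35 turned to 0.08 in nuclei with 2000 to 4000 UMIs and to 0.11 in nuclei with 6 to 9% mitochondrial UMIs. Myeloid markers summed to 118 and 159 CPM, with 7 of 14 tested, 0 past the fold higher and 1 lower, Cx3cr1, a macrophage chemokine receptor, at -0.78 (-1.27 to -0.28). Fibroblast markers summed to 1054 and 1186 CPM with a median of -0.01 over 9 tested. Endothelial markers went the other way and summed to 852 and 469 CPM, with 5 of 8 tested past the fold higher and a median of 0.76. Fabp4, the fatty acid carrier of capillaries and the most counted, was at 717 and 375 CPM, 1.06 (0.98 to 1.14), while the junction genes Pecam1 and Cdh5 were at 0.39 (-0.05 to 0.85) and 0.53 (0.16 to 0.91). In the 359 KO-Sham and 260 WT-Sham nuclei without any endothelial UMI, the respiratory chain median was 1.01, the proteasome median 0.51 and the antioxidant median 0.56. The median over all CM1 nuclei was 2 endothelial UMIs in KO-Sham and 1 in WT-Sham, so a nucleus without any may still hold such RNA. The part of endothelial or other markers in these results was not tested. Lymphocyte markers summed to 4.50 and 5.06 CPM, with Cd3e at 0 UMIs in KO-Sham and 1 in WT-Sham. The atrial markers Bmp10 and Sln were at 1 and 5 UMIs in KO-Sham and at 0 and 2 in WT-Sham. Mural and epicardial lists had 2 and 1 tested genes and 0 past the fold.

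By size alone, the 12 highest and 12 lowest genes with at least 200 UMIs were led by sex-linked genes. Xist was at 775 and 161 CPM, 2.39 (2.28 to 2.51), with its antisense partner Tsix at 1.86 (1.62 to 2.11). The genes of this pair overlap, and whether reads of either were counted for the other was not tested. Kdm5d was lowest at 24.5 and 51.8 CPM, -0.95 (-1.25 to -0.66), with Uty at -0.83 and Ddx3y at -0.77. The next highest were the short predicted gene Gm10076 at 1.63 (1.30 to 1.97), Nppb, and Mif, a secreted cytokine, at 177 and 76.4 CPM, 1.34 (1.16 to 1.52). The others were Nsmce4a of the SMC5/6 DNA repair complex (1.24), Mrpl28 of the mitochondrial ribosome (1.20), the vesicle tethering subunit Trappc2l (1.20), Lyrm2 (1.19), Gpihbp1, which anchors lipoprotein lipase on capillaries (1.19), Rbp7 (1.18) and Znrd2 (1.18).

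The low end held few counts per gene. Tcf21, a factor of epicardial and fibroblast lineages, was at 15.5 and 31.1 CPM, -0.88 (-1.25 to -0.50). Tyrobp, an adaptor of myeloid receptors, was at -0.72 (-1.12 to -0.33) and Ikbkb, a kinase of the NF-kappaB pathway, at -0.71 (-1.08 to -0.34). Klhl38 was at -0.80, Klhdc1 at -0.75 and Bahcc1 at -0.75, and the predicted genes Gm26724, Gm50020 and Gm46430 at -0.81, -0.78 and -0.70. The most counted of the 12 was Uty, with 639 UMIs in KO-Sham and 699 in WT-Sham.

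The pair was also compared within nuclei that shared sex-linked RNA. In nuclei with a Y-linked UMI and no Xist UMI, 711 in KO-Sham and 685 in WT-Sham, the respiratory chain median was 0.95, the proteasome 0.40, the antioxidant list 0.44 and the sarcomere 0.06, and 635 genes were past the fold higher and 108 lower. In nuclei with an Xist UMI, 1332 and 109, the same medians were 0.89, 0.42, 0.38 and 0.17. The median of proteasome assembly factors, activators and immunoproteasome subunits, 0.55 over all nuclei, was 0.08 there. The Y-linked genes, which define those nuclei, had a median of 0.13 in the first group in place of -0.80.

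In the infarcted pair, which shares no library with the sham pair, most pathway lists differed less or in the other direction. Red blood cell, myeloid and Y-linked lists differed as much or more in the same direction. There 73 of 8950 genes (0.816%) were past 1.5-fold higher in KO-MI and 91 (1.02%) lower. The respiratory chain had a median of 0.21 and 0 of 79 past the fold, the ribosome 0.13, heat shock and ubiquitin genes 0.10 and the mitochondrial genome -0.08. Red blood cell markers had a median of -0.94 with 4 of 4 tested past the fold lower, myeloid markers -0.69 with 5 of 8, and Y-linked genes -0.81. Atrial genes had a median of 0.89 over 3 tested, against 0.85 in the sham pair. By summed UMIs the atrial list stood at 0.27 (0.23 to 0.30), against 0.87 (0.75 to 0.99) in the sham pair. The proteasome median was -0.17 with 0 past the fold higher and 1 lower, Psmd1 at 74.4 and 113 CPM, -0.62 (-0.80 to -0.44). Among genes tested in both pairs, 17 were past the fold higher in both, 2.23% of the 763 sham genes and 26.6% of the 64 genes of the infarcted pair. They included Xist, Myl4 and Myl7. Lower in both were 7 genes, 9.33% of 75 and 12.7% of 55, namely Kdm5d, Uty, Ddx3y, Eif2s3y, Mafg, Me1 and Tyrobp. Of the sham genes past the fold higher, 82.4% had a ratio above 0 in the infarcted pair, with a median of 0.16, and of those past it lower 60.0% had a ratio below 0, with a median of -0.05. Over all genes tested in both pairs 61.3% had the same sign. The infarcted pair also differed less in median depth and mitochondrial share, as given above.

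The other cardiomyocyte populations of the same 2 libraries gave a median of the same sign for the respiratory chain in CM5 and CM2 and not in CM4. In CM5, with 234 and 89 nuclei, the respiratory chain had a median of 0.77 and 60 of 76 tested genes past the fold higher, against 10.8% of all genes tested there higher and 2.76% lower. In CM2, with 124 and 27 nuclei, it had a median of 0.60 and 37 of 67 higher, against 14.4% higher and 6.88% lower. In CM4, with 351 and 192 nuclei, its median was -0.14 with 0 of 78 higher and 1 lower, against 16.0% and 4.32%. Other lists above the median gene in CM1 were also below it in CM4, with medians of -0.27 for the proteasome (2 of 16 lower), -0.28 for the antioxidant list (3 of 18 lower), -0.39 for heat shock and ubiquitin genes and -0.22 for the ribosome. Calcium and excitation genes had a median of 0.47 in CM4, with 8 of 20 past the fold higher and 1 lower, against -0.11 in CM1. These differences between populations were not tested, with 1 library a side.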

How the data were processed

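Nuclei from pooled ventricular tissue were profiled with droplet 3′ single-nucleus RNA-seq, 1 library per group. The authors aligned reads with Cell Ranger (version not given in the sources used here) to an mm10/GRCm38 pre-mRNA reference, so intronic reads count, removed doublets with Scrublet, kept nuclei with 200 to 2500 genes, integrated libraries in Seurat 3, transferred labels from an earlier reference and merged CM3 into CM1. The deposited matrix holds raw UMI counts of 22574 genes in 8585 nuclei, and the deposited metadata give the library, label, UMI count and mitochondrial percent of each nucleus. The UMI counts and mitochondrial percents were checked against the matrix. Another 11 metadata columns were not used. The labels name the v2 and the methods the v3 kit, and the strain labels count upward between libraries and were read as C57BL/6.

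UMIs were summed over the CM1 nuclei of a library (7335268 in KO-Sham, 4151418 in WT-Sham) and converted to CPM. Log2 ratios were set to the median of genes with at least 100 UMIs over both sums, and a gene past 1.5-fold was counted. With 1 pool per group no test was run and no p-value given. Intervals are exact at 95% (Poisson for CPM, conditional binomial for ratios, Clopper-Pearson for shares) and cover counting error only, since nuclei and UMIs of 1 pool are not replicates. Genes named are those the study examined, the 12 highest and 12 lowest with at least 200 UMIs and an interval without the median gene, and the most counted, highest and lowest of each list, besides markers of other cells and the sexes and a few genes to fill out a pathway. Members and lists were chosen with earlier results of these data known. Gene positions and lengths came from GENCODE M21 (GRCm38), in which 97.9% of symbols matched 1 gene. The annotation release the authors counted with is not given in the sources used here. Promoters came from RefSeq (GRCm38.p6). Alternatives were other scalings (none, edgeR 4.0.16 TMM factors, mitochondrial genes left out, genes of like length), UMI minimums of 20 and 400, a fold of 2, the interval added to the fold, thinning to 1000 UMIs, equal weight per nucleus, and subsets of nuclei by depth, mitochondrial share, both labels, sex-linked UMIs and other-cell UMIs. Scripts used Python 3.11.15, numpy 2.4.6, scipy 1.17.1, pandas 2.3.3 and R 4.3.3, and the ratio was tested on simulated data. A few listed genes are not reported here.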

Additional observations from a re-analysis of the deposited data

Results flagged for a closer look

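In each of the following the sham pair and the infarcted pair, both as knockout over control in CM1, had log2 ratios of opposite sign, which is what drew attention to them. The difference was not tested in any of them, since each pair holds 1 pool per side. Summed proteasome subunits had a ratio of 0.39 in the sham pair and -0.15 in the infarcted pair. Assembly factors, activators and immunoproteasome subunits had 0.22 and -0.16. The 13 genes of the mitochondrial genome had 0.59 and -0.07. The cardiomyocyte markers had 0.14 and -0.02. The predicted gene Gm10076 had 1.63 and -0.50, and the predicted gene Gm26724 had -0.81 and 0.40.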

How the results depend on the processing

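The counts of genes past 1.5-fold, 825 higher and 101 lower, were within 1.5 times under TMM factors, totals without mitochondrial genes, the added interval, equal weight per nucleus, both labels, thinning and nuclei with 2000 to 4000 UMIs. They came to 504 and 250 without scaling, 1463 and 539 at a minimum of 20 UMIs, and 531 and 3 at 400 UMIs. At each minimum the ratio was set to the median of the genes left, unlike the 488 and 6 given above. The counts were 96 and 2 at a fold of 2, 417 and 55 in nuclei without endothelial UMIs, and 303 and 222 with genes of like length at 0. Higher genes numbered 190 in nuclei with at most 5% and 490 with 6 to 9% mitochondrial UMIs, and lower genes 303 in nuclei with an Xist UMI. A like count need not hold the same genes. After thinning, 554 of the 825 higher and 13 of the 101 lower genes still met the UMI minimum, and 473 and 8 of them were past the fold. In nuclei with 2000 to 4000 UMIs, 713 and 48 met the minimum, and 487 and 33 were past the fold. With both labels 770 and 77 met it, and 705 and 58 were past the fold.

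The respiratory chain median of 0.96 was 0.83 without scaling, 0.99 at 400 UMIs, 0.83 at 2000 to 4000 UMIs, 0.68 at most 5% and 0.80 at 6 to 9% mitochondrial UMIs, 0.89 with Xist, 1.01 without endothelial UMIs and 0.56 against genes of like length. The antioxidant median of 0.37 was 0.65 at 400 UMIs, 0.60 after thinning, 0.56 without endothelial UMIs and 0.14 against like length. The proteasome median of 0.38 was 0.51 without endothelial UMIs. The calcium and excitation median of -0.11 was -0.23 without scaling, -0.02 at most 5% mitochondrial UMIs and -0.01 against like length. Nfe2l1 was at 0.23 in nuclei with Xist. Signs turned in nuclei with Xist for Tsix (-0.30), Ddx3y (0.49) and Klhdc1 (0.03), and in nuclei with a Y-linked UMI and no Xist for the Y-linked list (0.13), Kdm5d (0.05), Uty (0.21) and Ddx3y (0.00), where the choice of nuclei used those RNAs. Among other named genes, whose main ratios lay inside the fold, signs also turned for Psma5 (-0.64), Psma1 (-0.05) and Nfe2l2 (0.06) at most 5% mitochondrial UMIs, for Nfe2l2 in 2 further settings (highest 0.18), for Mki67 at 0 or below in 4 settings (lowest -0.26), for Cat (-0.01 without scaling, -0.17 at 6 to 9%), for Psmd1 (0.19 without endothelial UMIs) and for Sod1 (-0.02 against like length). The cause of the other moves was not tested. Of 373 other-setting values of list medians 354 kept their sign, as did 454 of 474 for named genes.

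Nuclei free of red blood cell, myeloid, fibroblast and endothelial UMIs numbered 2 in KO-Sham and 0 in WT-Sham, and those free of fibroblast and myeloid UMIs 178 and 21, so neither gave a value. The subsets by endothelial UMIs and by 6 to 9% mitochondrial UMIs and the scaling by length were chosen after seeing the data. No paired analysis was possible because no result comes from a test and each group is 1 pool. With 1 pool per group, the spread between animals, the effect of Cre itself, and differences of sex, depth and mitochondrial share between pools cannot be told apart from the deletion.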
